A study of Mus musculus with 13 samples.

Results

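The genes described here encode the respiratory chain and ATP synthase, the machinery of oxidative phosphorylation in the inner mitochondrial membrane. Members were the protein-coding entries of the gene table whose symbol starts with Nduf, Uqcr, Atp5, Cox4i, Cox5, Cox6, Cox7 or Cox8, is Sdha to Sdhd, or starts with mt-Nd, mt-Co, mt-Atp or mt-Cytb, and whose mean over 13 libraries was at least 1 CPM (counts scaled to a common library size). Of 107 such entries 96 passed, 83 encoded in the nucleus and 13 in mitochondrial DNA, out of 54307 entries in the table, 17377 of them at or above the same level. All 96 were among the 19962 genes tested for expression. Ndufaf8 at 1.32 CPM and Ndufaf2 at 2.41 CPM lay just inside the minimum, and Atp5k at 0.76 CPM and Ndufa4l2 at 0.683 CPM just outside.

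Complex I takes electrons from NADH, complex II from succinate, complex III passes them to cytochrome c, and complex IV hands them to oxygen. Complexes I, III and IV pump protons, and ATP synthase uses the returning protons to make ATP, the main energy supply of neurons. Most subunits come from nuclear genes and are imported, while a small set of core subunits is encoded in the mitochondrial genome, so the machinery depends on both genomes. Mitochondrial messages are cut from long transcripts that cover nearly the whole strand; mt-Nd6 is the member read from the opposite strand.

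RNA of whole brain came from 13 C57BL/6 mice with 4 genotypes of Adar, the gene of ADAR1, an enzyme that turns adenosine into inosine in double-stranded RNA. The wt group held 3 animals (48, 48 and 74 days old), P195A/+ held 3 (all 43 days), P195A/P195A held 4 (42, 42, 48 and 48 days) and P195A/- held 3 (all 42 days), with 1 male in each group. P195A is a point mutation in the part of the long ADAR1 protein that binds left-handed (Z-form) nucleic acid, and P195A/- is written as that allele opposite a missing one. The longer genotype label of those 3 animals names P195A for each allele with AdarKO/+ behind it, and no label resolves this. In the P195A/+ and P195A/- comparisons with wt no age is shared, so age and genotype cannot be told apart there. The wt male was the animal of 74 days, so fits of females only leave out that age too.

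Library totals ranged from 13539148 to 22399005 counts. Adar itself lay at 165 to 189 CPM in wt; the P195A/+ libraries had 232 to 245, those of P195A/P195A 282 to 346 and those of P195A/- 196 to 204 CPM. It rose in P195A/P195A against wt (log2 fold change 0.84, edgeR adjusted p = 5.91e-05), and the labels do not say what RNA the missing allele leaves. Neuronal markers summed to 6675 to 6945 CPM in wt, and 6282 to 6538 (P195A/+), 6171 to 6976 (P195A/P195A) and 6315 to 6585 CPM (P195A/-) elsewhere. Of the 10 markers, 8 had a log2 fold change below 0 in P195A/+ against wt (median -0.07). In P195A/P195A against wt 9 did (median -0.05). In P195A/- against wt 7 did (median -0.10), with 2 lower at an unadjusted p under 0.05 (6.0% of all genes). The part of these differences in the results was not tested. The testis markers Prm1, Prm2 and Tnp1 were at 0 in every library. Skeletal muscle markers summed to 3.59 to 3.67 CPM in wt, and 1.93 to 33.0 (P195A/+), 2.51 to 12.75 (P195A/P195A) and 3.94 to 253 CPM (P195A/-) elsewhere, highest in P195A/- replicate 2. The muscle-type subunits Cox6a2, Cox7a1 and Cox8b reached at most 1.08, 0.831 and 0.253 CPM in any library. Olfactory bulb markers summed to 27.4 to 35.7 CPM in wt, and 16.9 to 18.8 (P195A/+), 41.1 to 53.0 (P195A/P195A) and 13.8 to 28.2 CPM (P195A/-) elsewhere, and the part of this difference in the results was not tested.

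Levels of different genes were compared per transcript length, as mean CPM per 1000 bases of the principal transcript over the 13 libraries. The highest nuclear members were Atp5b, the catalytic beta subunit of ATP synthase, at 309.4, Atp5a1, its alpha partner, at 261, and Cox7a2, a small subunit of complex IV, at 204 CPM per 1000 bases. In complex I the lowest level was 4.03, for Ndufa13, an accessory subunit, and the core subunit Ndufs1 stood at 62.5. Complex II ran from 90.7 for the flavoprotein Sdha, with the iron-sulfur subunit Sdhb next at 90.5, to 15.8 for the membrane anchor Sdhc. Complex III ran from 102 for the hinge protein Uqcrh to 8.05 for Uqcrq, complex IV from 204 for Cox7a2 to 9.69 for Cox5b, and ATP synthase from 309.4 for Atp5b to 7.32 for the membrane subunit Atp5j2. The 8 assembly factors of complex I, which build the complex but leave it afterwards, ran from 15.9 for Ndufaf1 to 1.69 for Ndufaf8, with a median of 9.62 against 17.9 for the nuclear subunits of complex I, whose range they overlapped.

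Among the 13 mitochondrially encoded members, mt-Co1, the catalytic subunit of complex IV, stood at 2787 CPM per 1000 bases, and mt-Nd3, a complex I subunit, was lowest at 88.2. The other members of complex I lay between those of mt-Nd4l (416) and mt-Nd5 (174), mt-Cytb of complex III stood at 287, and mt-Atp8 and mt-Atp6 of ATP synthase at 235 and 176. Levels of mt-Co2, mt-Co3, mt-Atp6, mt-Nd3 and mt-Nd4 depend on how reads were shared with copies in chromosome 1, described further on.

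**Figure D1:**
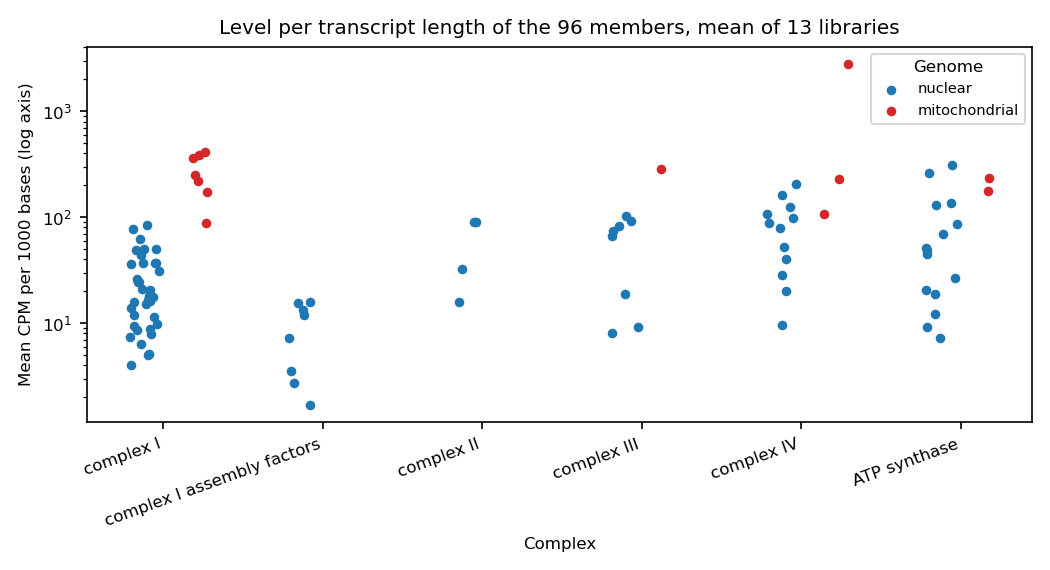
Mean level of each of the 96 members over 13 libraries in CPM per 1000 bases of the principal transcript (log axis), by complex; blue points are nuclear genes and red points mitochondrial genes. The highest point is mt-Co1 at 2787, and the nuclear members run from 309.4 (Atp5b) to 1.69 (Ndufaf8).

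In the brain most subunits with tissue isoforms were present as 1 form. Cox4i1 had 100 to 148 CPM per library against 0.089 to 0.493 for Cox4i2, the form known for its response to low oxygen. Cox6a1 had 6.495 to 23.0 CPM against 0.145 to 1.08 for Cox6a2, and Cox6b1 had 27.6 to 38.3 against 0.076 to 0.668 for Cox6b2, known from testis. Cox7a2 (102 to 172 CPM) and the related Cox7a2l (67.7 to 104) stood above Cox7a1, the muscle form (0.057 to 0.831). Cox8a had 59.3 to 81.1 CPM, Cox8b at most 0.253 and Cox8c was listed at 0. Ndufa4, named for complex I but now assigned to complex IV, had 11.2 to 31.3 CPM and its relative Ndufa4l2 0.29 to 1.37. Within each family the listed brain forms lay above the minor form in every library; the ranges of Cox7a2 and Cox7a2l overlapped.

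The mitochondrially encoded members took 0.666, 0.623 and 0.555% of all counts in wt, 0.5005, 0.536 and 0.569% in the P195A/+ libraries, 0.591, 0.429, 0.640 and 0.739% in those of P195A/P195A, and 0.648, 0.722 and 1.45% in those of P195A/-. Replicate 3 of P195A/- stood apart, and without it P195A/- lay within the range of the other genotypes. The 83 nuclear members together took 0.428 to 0.539% of the counts in every library, and 0.469% in that same library. Fewer mitochondria-rich cells and less RNA per cell cannot be told apart in whole tissue, here and in all results that follow.

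No mitochondrially encoded member passed edgeR's quasi-likelihood test (Benjamini-Hochberg adjusted p under 0.05) in any comparison; among all genes tested, 0.01% passed in P195A/+ against wt, 0.0501% in P195A/P195A against wt, 0.0351% in P195A/- against wt and 0.0401% in P195A/- against P195A/P195A. The 3 comparisons with wt share the same wt libraries, and the P195A/- libraries serve in 2 comparisons. The lowest adjusted p among these 13 genes was 0.319, for mt-Nd6 in P195A/- against wt.

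In P195A/- against wt, 12 of 13 mitochondrially encoded members had a log2 fold change above 0 (53.1% of all genes did), with a median of 0.60 against 0.02 for all genes. At an unadjusted p under 0.05, 1 member was higher (4.58% of all genes) and 1 lower (6.0%; 10.6% in either direction). None had all P195A/- libraries above all wt libraries (9.59% of all genes), and 1 lay entirely below (10.5% of all genes). Without P195A/- replicate 3 the median of the 13 was 0.11. That library came from the male of its group, so within P195A/- sex and library cannot be told apart. In females only the median was 0.02. The males of wt, P195A/+ and P195A/P195A had shares of 0.555, 0.569 and 0.429%.

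mt-Co1 had 4224, 3928 and 3524 CPM in wt and 4113, 4743 and 9034 in P195A/-. Only the last library left the range of the other 12, which reached 4743. Its log2 fold change was 0.62 ± 0.29 (SE; edgeR adjusted p = 0.4955), and 0.20 without replicate 3. mt-Cytb, the electron-carrying core of complex III, had 322, 272 and 239 CPM in wt and 305, 341 and 910 in P195A/-. Replicate 3 was again the highest of the 13 libraries, and the log2 fold change was 0.90 ± 0.39 with it (edgeR adjusted p = 0.457) and 0.23 without it. mt-Nd4, a proton-pumping subunit of complex I, had 500, 458 and 398 CPM in wt and 470, 504 and 1404 in P195A/-. The same library carried the difference, with log2 fold changes of 0.81 ± 0.38 with it and 0.12 without it.

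In all, 12 of the 13 mitochondrially encoded members had their highest value of the 13 libraries in P195A/- replicate 3, and mt-Nd6 did not. Summed over those 12 genes, CPM was 14655 in that library and 4074 to 7136 in the others. The large ribosomal RNA of mitochondria, mt-Rnr2, lies on the same strand as the 12 and had 1109 CPM there against 272 to 496 elsewhere; the small one, mt-Rnr1, had 18.4 against 3.65 to 8.95. The 12 included short and long messages, from mt-Atp8 (44.5 and 47.5 CPM in P195A/- replicates 2 and 1, 105 in replicate 3) to mt-Nd5 (309.4, 306.3 and 569.9 CPM).

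mt-Nd6, a core membrane subunit of complex I, took another course. Its CPM was 187.3, 217.4 and 232.5 in wt, 242.1, 232.4 and 212.5 in the P195A/+ libraries, 178.8, 162.3, 193.6 and 208.5 in those of P195A/P195A, and 175.4, 179.5 and 171.5 in those of P195A/-. All 3 P195A/- libraries lay below all 3 wt libraries, and replicate 3 did not differ from its group. The log2 fold change was -0.28 ± 0.10 (edgeR adjusted p = 0.319), and -0.25 without replicate 3. In P195A/P195A it was -0.19 ± 0.09 against wt (edgeR adjusted p = 0.8294), with overlapping ranges. The ends of mt-Nd5 and mt-Nd6 overlap on opposite strands, and no source used here says whether the gene counts used strand.

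**Figure D2:**
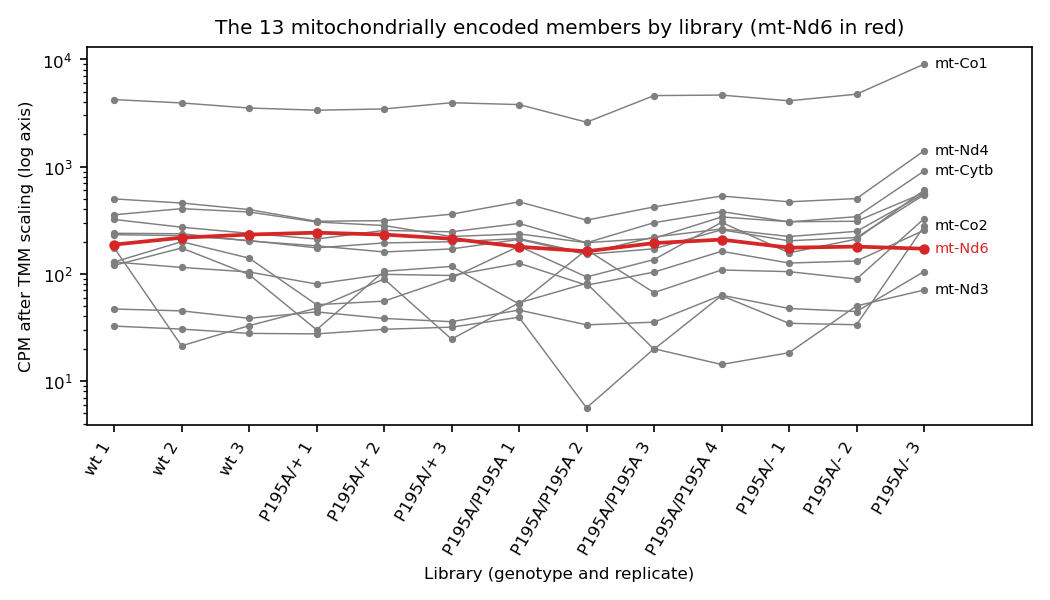
CPM after TMM scaling (log axis) of the 13 mitochondrially encoded members in each of 13 libraries, 1 line per gene, mt-Nd6 in red and the other 12 in grey. The grey lines turn up in P195A/- replicate 3, where mt-Co1 reaches 9034, while mt-Nd6 stays at 171.5.

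In P195A/+ against wt, 1 of 13 mitochondrially encoded members had a log2 fold change above 0 (50.8% of all genes), and the median was -0.34 against 0.00 for all genes. For 6 of the 13, every P195A/+ library lay below every wt library (6.32% of all genes): mt-Nd1, mt-Nd2, mt-Nd4, mt-Nd4l and mt-Nd5 of complex I and mt-Co3 of complex IV. The members share long precursor transcripts and are not independent, and none reached an unadjusted p under 0.05 in edgeR (4.48% of all genes, 2.52% as lower). mt-Nd2 had 239, 237 and 202 CPM in wt and 182.5, 160 and 171 in P195A/+. The groups did not overlap, and the log2 fold change was -0.40 ± 0.34 (edgeR adjusted p = 0.9995). mt-Nd5 had 355.5, 405.6 and 377.4 CPM in wt against 304.5, 282.2 and 222.9 in P195A/+, a log2 fold change of -0.49 ± 0.26 (edgeR adjusted p = 0.9995).

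In P195A/P195A against wt the median of the 13 was -0.06, with 5 above 0 (51.4% of all genes) and 2 lower at an unadjusted p under 0.05 (2.94% of all genes, 5.89% in either direction), mt-Nd5 and mt-Nd6. mt-Nd5, the largest membrane subunit of complex I, had 235.9, 195.3, 214.5 and 339.2 CPM in P195A/P195A. All 4 lay below the wt libraries (3.79% of all genes did so), with a log2 fold change of -0.62 ± 0.24 (edgeR adjusted p = 0.8294). Against P195A/P195A, P195A/- had a median of 0.71 for the 13 members, 12 above 0 (50.8% of all genes) and 5 higher at an unadjusted p under 0.05 (3.19% of all genes, 6.82% in either direction): mt-Nd1, mt-Nd4, mt-Nd5, mt-Co1 and mt-Cytb. Without P195A/- replicate 3 the median was 0.14.

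Near-identical copies of 5 mitochondrially encoded members lie side by side in nuclear chromosome 1 and received counts. Copies of mt-Co1 (Gm13340), mt-Nd4l (Gm10222) and mt-Nd5 (Gm4076), and a further one of mt-Co2 (Gm13341), had a mean of at most 0.0567 CPM. Their positions were not examined. That of mt-Nd4l, without a mismatch over 99% of the transcript, was listed at 0, which also depends on how reads were assigned. Per the GENCODE M21 annotation of GRCm38, on the minus strand, Gm28661 (chr1:24614885-24615565) matches mt-Co2 over 681 aligned bases, Gm10925 (chr1:24613974-24614651) mt-Atp6 over 678, Gm28437 (chr1:24613189-24613971) mt-Co3 over 783 and Gm28439 (chr1:24611535-24612410) mt-Nd4 over 876, each without a mismatch. A read from within these stretches has no base that assigns it to either place. Gm28438 (chr1:24612775-24613119) matches mt-Nd3 (M:9459-9806) over 345 bases with 1 substitution, T3C, counted from the first base of the mt-Nd3 transcript. The first 30 bases of both are shown because they hold that difference, in capitals, 5′ to 3′, from the GENCODE M21 transcripts.
mt-Nd3: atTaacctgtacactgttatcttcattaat
Gm28438: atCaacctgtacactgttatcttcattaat

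mt-Co2, the subunit of complex IV that receives electrons from cytochrome c, had 175, 21.3 and 32.8 CPM in wt, 47.9, 89.5 and 24.6 in the P195A/+ libraries, 53.7, 81.6, 19.8 and 62.6 in those of P195A/P195A, and 34.5, 33.5 and 277 in those of P195A/-. Its share of the counts of both entries together ran from 6.11 to 56.3%. Outside P195A/- replicate 3 the highest library had 8.86 times the lowest; for mt-Co2 plus Gm28661 that ratio was 1.58, with 233 to 368 CPM. The level assigned to mt-Co2 alone varied far more than the sum did.

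The ratio of highest to lowest over the same 12 libraries went from 5.79 to 1.65 for mt-Atp6, the proton channel subunit of ATP synthase, when Gm10925 was added. For mt-Co3 it went from 5.86 to 2.81, for mt-Nd3 from 8.94 to 2.43, and for mt-Nd4, where the copy held little, from 1.72 to 1.71. In P195A/- replicate 3 the sums were 2.29 (mt-Co2), 3.85 (mt-Atp6), 3.78 (mt-Co3), 5.13 (mt-Nd3) and 2.85 (mt-Nd4) times the mean of the other 12 libraries, so that library was high with the copies added as well. In P195A/+ the sum for mt-Co3 was 594, 685 and 809 CPM against 948, 825 and 642 in wt. With the copy, the ranges overlapped, unlike those of mt-Co3 alone. With the copies added for the 5 members, the 12 genes without mt-Nd6 had a median log2 fold change of 0.64 in P195A/- against wt and -0.23 in P195A/+ against wt. No sum passed edgeR's test, the lowest adjusted p being 0.361 for mt-Co2 plus Gm28661 in P195A/- against wt.

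**Figure D3:**
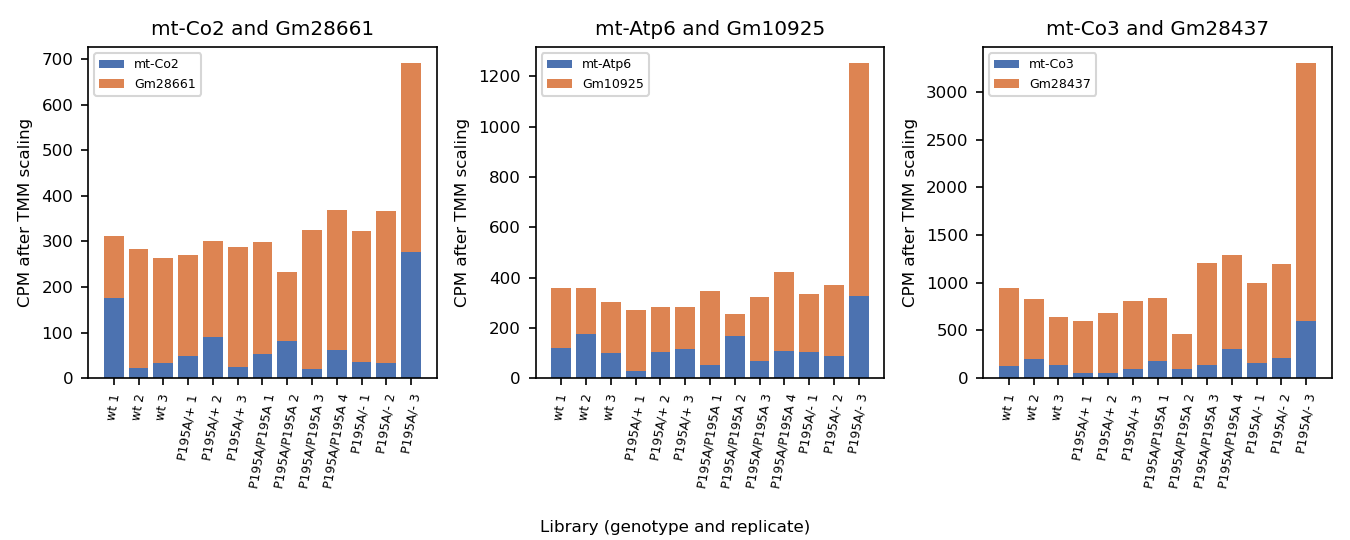
CPM after TMM scaling of mt-Co2, mt-Atp6 and mt-Co3 (blue) stacked on their copies Gm28661, Gm10925 and Gm28437 in chromosome 1 (orange), in each of 13 libraries. The split between colours varies from library to library, the mt-Co2 share from 6.11 to 56.3%, while the summed bars are more even outside P195A/- replicate 3.

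No nuclear member passed edgeR's test in any comparison; the lowest adjusted p was 0.255, for Atp5a1 in P195A/- against wt. In that comparison 48 of 83 had a log2 fold change above 0, with a median of 0.06 and a range from -0.37 to 0.86. At an unadjusted p under 0.05, 7 were higher (8.43% of the members; 4.58% of all genes) and 7 lower (8.43%; 6.0% of all genes). The libraries of both groups did not overlap for 10 higher members (9.59% of all genes) and for 15 lower members (18.1%; 10.5% of all genes). Without P195A/- replicate 3 the median of the 83 was -0.05, with 32 above 0. In the same comparison 6 of 7 oligodendrocyte markers were above 0 (median 0.18, 3 higher at an unadjusted p under 0.05; summed 6975 to 7425 CPM against 5623 to 6306 in wt). Astrocyte markers had a median of -0.07, with 3 of 7 lower at an unadjusted p under 0.05 (summed 7630 to 8416 CPM against 8442 to 9297 in wt). The part of either in the results was not tested.

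Of the members lower in P195A/-, Atp5a1, whose protein forms the head of ATP synthase with the beta subunit, had 649, 739 and 775 CPM in wt and 575.5, 578 and 515 in P195A/-. All P195A/- libraries lay below all wt libraries. The log2 fold change was -0.37 ± 0.10 (edgeR adjusted p = 0.255) and -0.31 without replicate 3. DESeq2 gave Atp5a1 -0.38 with an adjusted p of 0.0441, which passes. It passed 4.89% of the 4094 genes to which it gave an adjusted p here, and among the members Atp5a1 and Uqcrfs1 only. Many members of low level, among them Ndufb8, Uqcr11 and Cox6a1, got no adjusted p from DESeq2 here. In the other comparisons DESeq2 passed no member, and 0.0953% (P195A/+ and P195A/P195A against wt) and 0.261% (P195A/- against P195A/P195A) of all genes.

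Uqcrfs1 is the Rieske protein, the iron-sulfur subunit of complex III. It had 99.7, 110 and 115 CPM in wt and 84.2, 87.8 and 79.8 in P195A/-, with no overlap. The log2 fold change was -0.37 ± 0.10 (edgeR adjusted p = 0.255; DESeq2 adjusted p = 0.0419), and -0.32 without replicate 3. In P195A/+ the same gene had 123, 114 and 128 CPM, and in P195A/P195A 85.4, 89.2, 113 and 87.5.

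Atp5g3, which makes the c subunit of the rotating ring of ATP synthase, had 103.8, 103.5 and 114.5 CPM in wt and 89.62, 85.02 and 89.05 in P195A/-. The groups were apart by more than their own spread, with a log2 fold change of -0.29 ± 0.09 (edgeR adjusted p = 0.282). Cox7a2 had 132, 145 and 153 CPM in wt and 114, 127 and 102 in P195A/-, a log2 fold change of -0.33 ± 0.13 (edgeR adjusted p = 0.376). Ndufb6, an accessory subunit of the complex I membrane arm, had 27.0, 29.9 and 32.9 CPM in wt and 24.2, 25.4 and 22.3 in P195A/-, a log2 fold change of -0.32 ± 0.12 (edgeR adjusted p = 0.346). Neither overlapped with wt.

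The 4 subunits of complex II, the complex with no mitochondrially encoded part, all had log2 fold changes below 0 in P195A/-, with a median of -0.16. Sdhc had 51.4, 57.3 and 57.0 CPM in wt and 46.5, 45.9 and 46.1 in P195A/-, and Sdhb 94.8, 109 and 112 against 92.4, 91.6 and 84.6. Both groups were apart in both genes, with log2 fold changes of -0.26 ± 0.10 and -0.23 ± 0.12 (edgeR adjusted p = 0.375 and 0.504). Sdhd (-0.08) and Sdha (-0.01) overlapped with wt, and the sign of Sdha turned in 5 of 17 alternatives, among them scaling by library totals and females only.

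Ndufs1, the largest iron-sulfur subunit of complex I, had 165, 170 and 190 CPM in wt and 148, 150 and 158 in P195A/-. It too did not overlap, at -0.20 ± 0.09 (edgeR adjusted p = 0.463), whereas Ndufv1, which binds NADH, overlapped at -0.28. The other non-overlapping lower members were Ndufa8 and Ndufa9 of complex I, the assembly factors Ndufaf4 and Ndufaf7, Cox5a and Cox7c of complex IV, and the core protein Uqcrc1 of complex III, with log2 fold changes from -0.18 to -0.10. Atp5b, the partner of Atp5a1, had 578, 594 and 655 CPM in wt and 560, 527 and 581 in P195A/- and overlapped, at -0.13.

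Of the members higher in P195A/-, Ndufb8, an accessory subunit of complex I often used to gauge how much of the complex is assembled, had 11.9, 11.2 and 12.6 CPM in wt and 13.5, 18.3 and 21.5 in P195A/-. Every P195A/- library lay above wt, but the group was wide. The log2 fold change was 0.58 ± 0.17 (edgeR adjusted p = 0.258) and 0.43 without replicate 3. Uqcr11, the smallest subunit of complex III, had 3.03, 3.21 and 3.03 CPM in wt and 4.67, 4.52 and 7.66 in P195A/-, likewise without overlap. Its log2 fold change was 0.86 ± 0.26 (edgeR adjusted p = 0.270) and 0.58 without replicate 3.

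For others, replicate 3 carried most of the difference. Cox6a1 of complex IV had 9.66, 8.78 and 10.2 CPM in wt and 11.3, 11.2 and 23.0 in P195A/-, a log2 fold change of 0.67 ± 0.27 with that library and 0.25 without it. Ndufa12, at the junction of the arms of complex I, had 9.05, 6.47 and 6.87 CPM in wt and 9.58, 9.28 and 16.8 in P195A/-, at 0.67 ± 0.26 and 0.35. Ndufa4 had 16.0, 14.6 and 12.11 CPM in wt and 14.0, 22.5 and 31.3 in P195A/-, at 0.67 ± 0.27 and 0.37, and its groups overlapped. Atp5j2 had 6.85, 5.94 and 6.64 CPM in wt and 5.10, 6.90 and 16.1 in P195A/-, and its log2 fold change of 0.54 turned to -0.10 without replicate 3. The edgeR adjusted p of these 4 genes ran from 0.359 to 0.599. The other members whose P195A/- libraries all lay above wt were Atp5o, the stalk subunit of ATP synthase that confers oligomycin sensitivity, with 39.0, 38.6 and 38.5 CPM in wt and 41.1, 47.4 and 68.0 in P195A/- (log2 fold change 0.43), Cox6c (0.30), Atp5mpl (0.37), Ndufa3 (0.43), the core complex I subunit Ndufs8 (0.24) and the assembly factor Ndufaf6 (0.49).

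**Figure D4:**
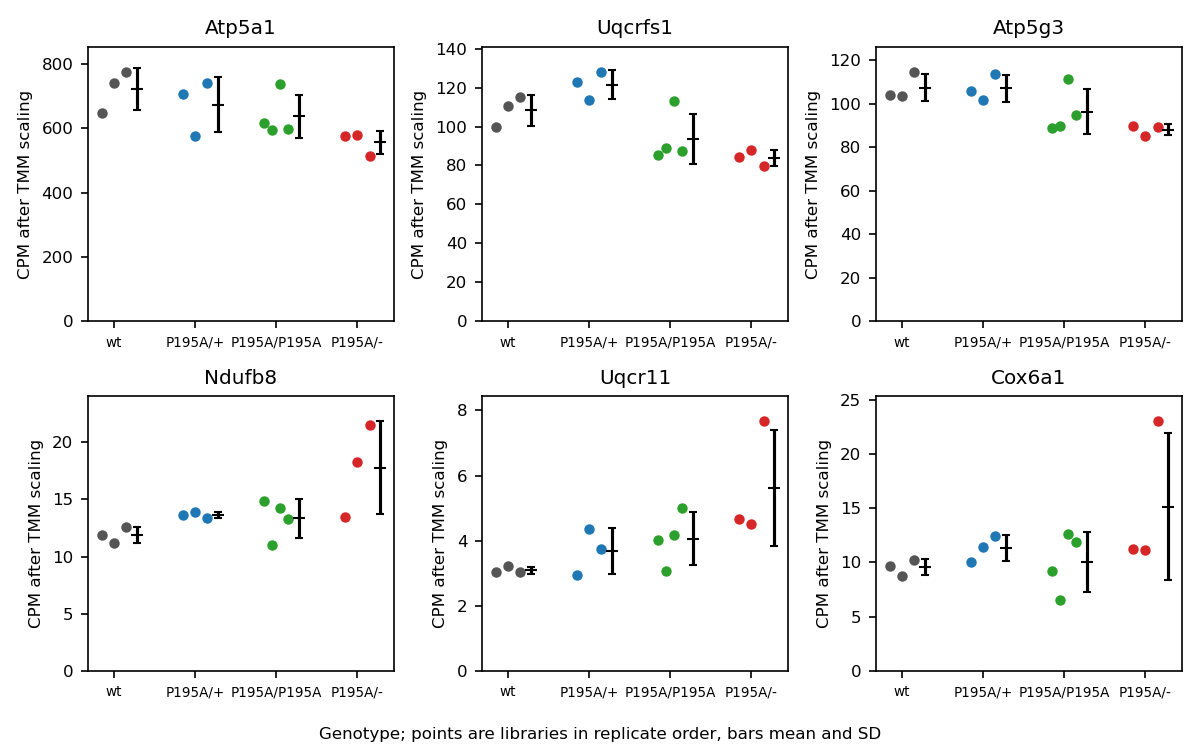
CPM after TMM scaling of 6 nuclear members in each library by genotype, with the mean and SD beside the points; axes start at 0. Atp5a1, Uqcrfs1 and Atp5g3 lie lower in all 3 P195A/- libraries than in wt, and Ndufb8, Uqcr11 and Cox6a1 lie higher, with replicate 3 of P195A/- (rightmost point) highest.

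By complex, the medians in P195A/- against wt were 0.09 for the 36 nuclear members of complex I, -0.16 for 4 of complex II, -0.10 for 8 of complex III, 0.02 for 12 of complex IV, 0.08 for 15 of ATP synthase and -0.01 for the 8 assembly factors. The medians also differed by transcript length. Nuclear members with a principal transcript up to 1000 bases (44 genes) had a median of 0.11 and longer ones (39 genes) -0.07; over all genes the medians were 0.08 (823 genes) and -0.02 (14447 genes). Against the wt mean, the short members stood at a median log2 deviation of -0.01, 0.00 and 0.39 in P195A/- replicates 1, 2 and 3, and all short genes at 0.01, 0.02 and 0.17. The short members thus stood highest in the library that was also high for mitochondrial messages, where the long members stood at 0.07. The part of transcript length or RNA quality in these values was not tested.

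In P195A/+ against wt, 60 of 83 nuclear members (72.3%) had a log2 fold change above 0, with a median of 0.09. Without P195A/+ replicate 3, the male of its group, the median was 0.04, with 52 of 83 above 0. The fit of females only, which leaves out that same library and the 74-day wt male, also gave 0.04. Against the wt mean the median log2 deviation of these genes was 0.02, 0.05 and 0.16 in replicates 1, 2 and 3, and that of all short genes 0.12 in replicate 3. For 11 (13.3%; 5.62% of all genes) every P195A/+ library lay above wt, for none did every library lie below (6.32% of all genes), and 3 were higher at an unadjusted p under 0.05 (1.96% of all genes). Ndufa10, an accessory subunit of the complex I membrane arm, had 50.5, 43.8 and 42.8 CPM in wt and 53.3, 54.9 and 60.3 in P195A/+. All P195A/+ libraries were above wt, with a log2 fold change of 0.30 ± 0.11 (edgeR adjusted p = 0.9995). Ndufb9, another accessory subunit, had 47.1, 53.2 and 55.5 CPM in wt and 59.1, 63.8 and 63.7 in P195A/+, at 0.26 ± 0.11. Atp5mpl, a small membrane protein of ATP synthase, had 10.9, 11.25 and 9.576 CPM in wt and 15.23, 13.49 and 14.79 in P195A/+, at 0.46 ± 0.20. Neither overlapped.

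Of the others examined by name there, Ndufb11, a complex I subunit encoded on the X chromosome, did not overlap either, at 0.27 ± 0.15. Ndufaf8 had the widest difference, with 1.91, 1.58 and 1.08 CPM in wt and 1.31, 0.725 and 0.476 in P195A/+, but its groups overlapped (log2 fold change -0.86 ± 0.45). The other non-overlapping members were Atp5o, Ndufb8, Ndufa8, Ndufa3 and the assembly factors Ndufaf1, Ndufaf4 and Ndufaf6. Nuclear members thus lay mostly above wt in the group where mitochondrial members lay mostly below it, and a test of that contrast between gene groups was not made. Of all short genes 62.6% were also above 0 in this comparison (median 0.07), and for 9.11% every P195A/+ library lay above wt. Among 79 ribosomal proteins of the cytosol 62 were above 0 (median 0.07), 8 of them without overlap. The part of such a general shift was not tested. Oligodendrocyte markers had a median log2 fold change of 0.22 in the same comparison, with 3 of 7 higher at an unadjusted p under 0.05 and summed levels of 6263 to 7413 CPM against 5623 to 6306 in wt; their part in the result was not tested.

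In P195A/P195A the nuclear members were close to wt as a group and uneven between libraries. The median of the 83 nuclear members was -0.01, with 38 above 0, none higher and 2 lower at an unadjusted p under 0.05 (2.96 and 2.94% of all genes), none entirely above wt (2.69% of all genes) and 1 non-overlapping lower member, the assembly factor Ndufaf1 (3.79% of all genes). Against the wt mean, 75 of 83 nuclear members were above it in replicate 3 and 8 of 83 in replicate 2, with median log2 deviations of 0.21 and -0.25; replicates 1 and 4 stood at -0.11 and 0.02. Replicate 2 held the lowest value of all 13 libraries for 42 of the 83 nuclear members and for 9 of the 13 mitochondrial ones, and replicate 3 the highest for 23 nuclear members. Replicate 2 came from the male of its group and had the lowest library total of the series (13539148 counts). Sex, library total and library cannot be told apart there. All short genes stood at -0.24 in replicate 2 and 0.17 in replicate 3 as well, and the part of such a general shift was not tested. Astrocyte markers had a median log2 fold change of -0.19 in this comparison, with 3 of 7 lower at an unadjusted p under 0.05 (summed 7584 to 8345 CPM against 8442 to 9297 in wt), and their part was not tested either.

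Sdhc had 43.6, 42.3, 54.4 and 47.4 CPM in P195A/P195A, overlapping with wt at 1 library, and a log2 fold change of -0.23 ± 0.09 (edgeR adjusted p = 0.8294). Uqcrfs1 was at -0.21 ± 0.10, Uqcrc1 at -0.17 ± 0.09, Atp5a1 at -0.18 ± 0.10 and Atp5g3 at -0.16 ± 0.09, with the same edgeR adjusted p of 0.8294. In each of these genes replicate 3 reached the wt range. Restricted to the 48-day animals, 2 of each genotype, the median of the nuclear members was 0.11; those are P195A/P195A replicates 3 and 4, of which replicate 3 is the high library.

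Against P195A/P195A, P195A/- had a nuclear median of 0.06, with 52 of 83 above 0 (50.8% of all genes). At an unadjusted p under 0.05, 4 were higher and 1 lower (3.19 and 3.63% of all genes). All libraries were apart for 2 higher members, Ndufa12 and Ndufaf3 (2.64% of all genes), and 2 lower ones, Atp5a1 and Ndufb6 (4.0% of all genes). Ndufa12 had 7.25, 5.18, 8.64 and 8.91 CPM in P195A/P195A, all below P195A/-, with a log2 fold change of 0.66 ± 0.24 (edgeR adjusted p = 0.650) and 0.33 without P195A/- replicate 3. Ndufb6 had 27.01, 29.99, 32.07 and 26.60 CPM in P195A/P195A, all above P195A/-, at -0.27 ± 0.11 (edgeR adjusted p = 0.694). Among the 42-day animals, which both genotypes share, the nuclear median was 0.20. Those are P195A/P195A replicates 1 and 2, the low libraries, against 3 P195A/- libraries. Oligodendrocyte markers had a median of 0.235 in P195A/- against P195A/P195A, with 4 of 7 higher at an unadjusted p under 0.05. All 5 olfactory bulb markers were below 0 (median -1.58), and 1 passed edgeR's test (adjusted p = 0.0253; 0.0401% of all genes passed). The part of either in the results was not tested.

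**Figure D5:**
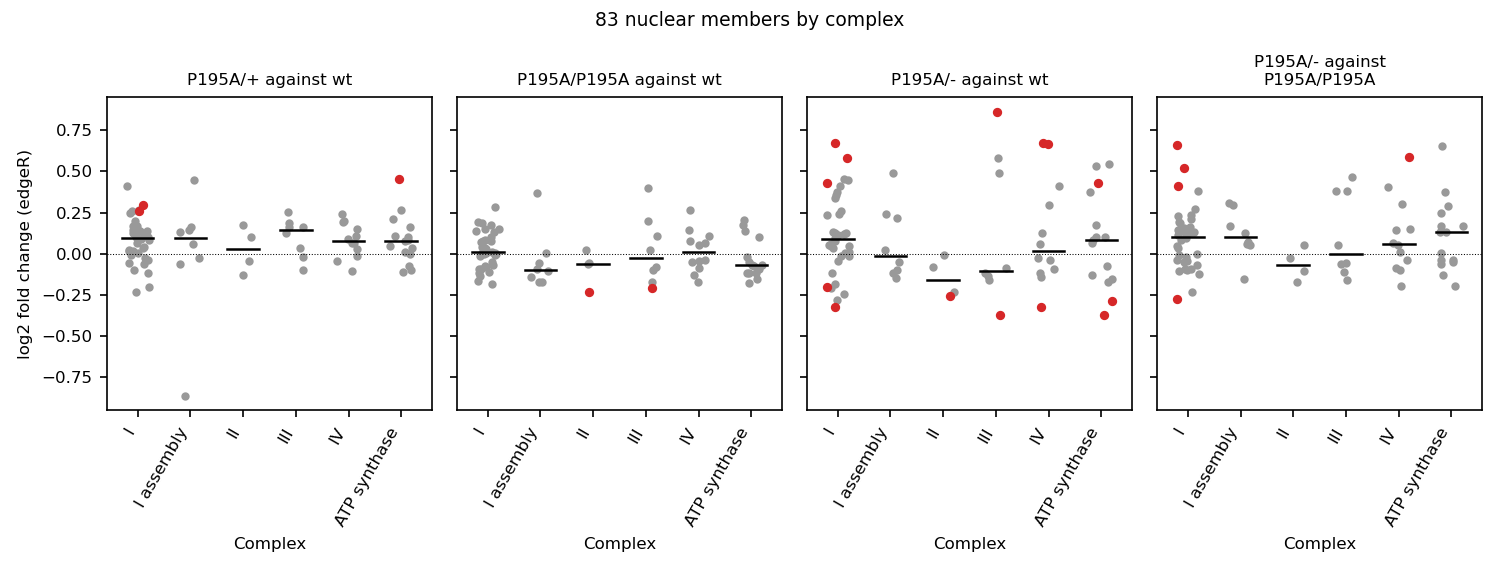
edgeR log2 fold change of the 83 nuclear members by complex in 4 comparisons; black bars are medians, and red points have an unadjusted p under 0.05, none an adjusted p under 0.05. Points lie mostly above 0 in P195A/+ (60 of 83), close to 0 in P195A/P195A, and spread to both sides in P195A/-, from -0.37 to 0.86.

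Across the 13 libraries the median coefficient of variation was 13.62% for the nuclear members (7.08 to 41.7%) and 49.0% for the 12 mitochondrial members without mt-Nd6, against 15.4% for all genes tested of at least 1 CPM. mt-Nd6 stood at 13.2%. Nuclear members over 20 CPM (47 genes) had a median of 11.8% and those up to 20 CPM (36 genes) 21.3%, so differences in small subunits of low level were measured less tightly. Of the nuclear members 9 have near-identical copies elsewhere in the genome (21 copies of at least 95% identity over at least 50% of the transcript), none of which exceeded a mean of 0.157 CPM.

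Genes around the chain were measured from lists. Of 8 symbols listed for carriers and subunits outside the naming rule, 7 had an entry under that symbol and were tested. Cycs, cytochrome c itself, stood at -0.04 and Cyc1, cytochrome c1 of complex III, at 0.05 in P195A/- against wt. Atpif1, the inhibitor of ATP synthase, had 4.44, 2.47 and 3.30 CPM in wt and 4.73, 4.27 and 11.2 in P195A/-, again highest in replicate 3, with a log2 fold change of 0.99 (edgeR adjusted p = 0.328). The 32 assembly factors of complexes II to IV and others had a median of -0.04, the 25 genes that copy, transcribe and process mitochondrial DNA and RNA -0.01, and the 10 regulators of mitochondrial genes -0.08. None of their members passed edgeR's test in any of the 4 comparisons.

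Glycolysis, which feeds pyruvate to mitochondria, lay lower: 13 of 16 genes were below 0 in P195A/- against wt, with a median of -0.18 and 7 lower at an unadjusted p under 0.05 (6.0% of all genes), and all 16 were below 0 in P195A/P195A (median -0.13, 5 lower; 2.94% of all genes). None passed the adjusted test. The citric acid cycle had medians of -0.10 and -0.09, with 14 of 16 genes below 0 in both comparisons, which share the wt libraries. Ribosomal proteins of the cytosol, short and abundant like many members, had a median of 0.14 in P195A/- against wt, with 11 of 79 higher and 3 lower at an unadjusted p under 0.05 (4.58 and 6.0% of all genes), and those of mitochondrial ribosomes -0.01, with 6 and 2 of 78.

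ADAR1 edits adenosines, and inosine is read as G, so the deposited read counts at listed sites were examined inside member genes. Of the sites with at least 10 reads in each library of a comparison, 35 lay in 10 nuclear members and none in a mitochondrial gene: 26 in introns, 8 in 3′ UTRs (6 in Atp5g1 and 2 in Ndufa12) and 1 in an exon of a noncoding transcript of Atp5l. Cox7b held 10 of them, all intronic (X:106017768-106018998), Ndufv2 6 and Ndufs3 3, and none was in a coding exon. No site in a member passed edgeR's test on A and G reads: 0 of 29 in P195A/+ against wt (0.0214% of all sites), 0 of 28 in P195A/P195A against wt (0.225%), 0 of 30 in P195A/- against wt (0.00705%) and 0 of 26 in P195A/- against P195A/P195A (0.0846%). At an unadjusted p under 0.05 there were 1, 1, 0 and 1 (6.01, 7.95, 3.96 and 7.25% of all sites).

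The sites with most reads were all intronic in Cox7b, the gene of a small subunit of complex IV. At X:106017777 (mm10) the edited share was 45.9, 27.6 and 50% in wt, 30, 48.6 and 47.8% in the P195A/+ libraries, 46.4, 37, 27.3 and 36% in those of P195A/P195A, and 52.6, 52.4 and 29.2% in those of P195A/-, from 19 to 37 reads each. All groups overlapped, with edgeR adjusted p from 0.9284 to 0.9997. At X:106017826 the share was 28.1, 28 and 42.9% in wt (33.0% ± 8.54 SD, n = 3) and 10, 12, 20.7 and 9.1% in P195A/P195A (12.95% ± 5.3 SD, n = 4). These groups did not overlap, with a log2 odds ratio of -1.63 ± 0.64 (edgeR adjusted p = 0.477). The P195A/+ shares there, 25.9, 14.3 and 27.6%, also lay below wt (edgeR adjusted p = 0.896). In P195A/- they were 44.4, 27.8 and 6.2%, which spanned from above the wt range to below that of P195A/P195A. X:106017826 was the only member site at an unadjusted p under 0.05 in P195A/P195A against wt. At the intronic Ndufs3 site 2:90897479 P195A/P195A did not overlap with wt in the other direction. Shares there were 17.4 to 25.9% against 10 to 16.7% in wt (edgeR adjusted p = 0.779). The median log2 odds ratio in this comparison was 0.16 for the member sites and 0.16 for all sites. In P195A/+ against wt further member sites were apart, in both directions. Shares at Ndufab1 7:122094487 were 63.2 to 68.2% against 40.7 to 52.2% in wt. Those at Cox7b X:106017851 were 17.2 to 21.1% against 11.5 to 16.7%. At Ndufs3 2:90897480 they were 0 to 10% against 14.3 to 26.3%. The edgeR adjusted p of these sites was 0.843, 0.916 and 0.843. How often groups did not overlap among all sites was not counted. With 10 to 39 reads per library and site, small differences in editing were not detectable at this depth.

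RefSeq promoter windows (GRCm38.p6, from 250 bases before to 50 after the gene start) were matched for 68 of 83 nuclear members, giving 73 windows out of 32851. They were searched on both strands for the letters of factors known to drive such genes: the palindromic NRF1 consensus, in capitals in the windows that follow, was in 6.85% of member windows and 0.971% of all windows, and its core with any bases at the middle 2 places, which includes the former, in 27.4 and 6.23%. CCGGAAG for ETS factors was in 23.3 and 8.86%, AAGATGGC for YY1 in 13.7 and 2.75%, and GGGCGG for SP1 in 42.5 and 35.7%. The 5 members with the full NRF1 letters are shown as 30-base windows, in capitals the motif, since they are the closest matches to a known factor of this gene family.
Uqcrc1 (chr9:108936668-108936697, plus strand): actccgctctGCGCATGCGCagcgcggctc
Cox6a1 (chr5:115349101-115349130, minus strand): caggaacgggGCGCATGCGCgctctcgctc
Ndufaf5 (chr2:140170652-140170681, plus strand): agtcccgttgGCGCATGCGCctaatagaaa
Ndufaf4 (chr4:24897960-24897989, plus strand): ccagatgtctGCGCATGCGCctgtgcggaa
Ndufa11 (chr17:56717692-56717721, plus strand): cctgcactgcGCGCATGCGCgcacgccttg

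The YY1 letters were found in 10 members, in all 10 on the strand of the gene, and 9 of those matches began 10 to 38 bases after the start. Ndufb8, Ndufs7 and Ndufa9 are shown with the motif in capitals; AAGATGGC contains ATG, and a match is a description of letters and not a binding site.
Ndufb8 (chr19:44555393-44555422, minus strand): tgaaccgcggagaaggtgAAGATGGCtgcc
Ndufs7 (chr10:80249462-80249491, plus strand): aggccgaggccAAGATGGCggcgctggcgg
Ndufa9 (chr6:126849097-126849126, minus strand): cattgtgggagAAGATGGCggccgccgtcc

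Members that share a motif differed in direction. In P195A/- against wt the 5 genes with the NRF1 letters had a median log2 fold change of -0.05, the 17 with ETS letters 0.06 and the 10 with YY1 letters 0.12, against 0.06 for all 83 nuclear members; Ndufb8, at 0.58, and Ndufa9, at -0.18, both carry the YY1 letters. Members with no matched promoter window include Atp5a1, Atp5f1, Atp5mpl, Atp5s, Cox4i1, Cox6c, Ndufa2, Ndufaf6, Ndufb9, Ndufs1, Sdhc, Uqcrb, Uqcrc2 and Uqcrq.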

How the data were processed

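For gene expression the authors deposited expected counts (reads assigned by estimation), for which the submitters' processing notes name fastp 0.19.5 and Salmon; no source used here names the index or says whether strand was used. Counts at editing sites of A, C, G and T were deposited as JACUSA2 2.0.0-RC5 tables on mm10, per the file headers with a minimum coverage of 3, a depth limit of 3000 and duplicates left out. Libraries are separate animals per the labels.

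After rounding, the counts entered edgeR 4.0.16 (R 4.3.3; TMM scaling, filterByExpr, robust quasi-likelihood test) with all 13 libraries in 1 fit of 19962 genes and no covariate. CPM values are after TMM scaling, except for the 1 CPM minimum, which used library totals. A call needs an adjusted p under 0.05; DESeq2 1.42.0 and limma 3.58.1 (voom) were alternatives. On simulated counts the fit was tested with known fold changes. Of the table's counts 0.678% belonged to entries not matched to GENCODE M21 and stayed in. Deviations from the wt mean use log2(CPM + 0.5). Copies were sought with BLAST 2.17.0. Editing was fitted per comparison table on sites with at least 10 reads in each library and a pooled level of 1 to 99%.

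Members and lists were chosen with earlier results of these data known. Genes named are all mitochondrially encoded members, the 5 nuclear members with the smallest p per comparison, isoform families, core subunits and the ends of each complex's level order, except 1 gene that is not reported here; names of non-overlapping members were added after their values were seen. Of editing sites, the 3 with most reads per comparison were eligible, and the Ndufs3 and Ndufab1 sites were added after their values were seen.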

Additional observations from a re-analysis of the deposited data

Results flagged for a closer look

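In P195A/P195A, the only group large enough for a check of single libraries (4 animals), 47 named genes were examined and 4 had a library whose gap to its nearest neighbour took up more of the group's range than Dixon's 95% critical value; chance alone gives about 1 in 20 groups. In 3 of them replicate 3 was high. Atp5a1 had 737 CPM there against 594 to 617 in the other libraries, Ndufs1 197 against 153 to 156, and Uqcrfs1 113 against 85.4 to 89.2. In Ndufaf1 replicate 2 was low, at 17.2 CPM against 21.8 to 22.5. These are the same libraries in which 75 and 8 of 83 nuclear members lay above the wt mean.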

How the results depend on the processing

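No named gene passed the adjusted test. Of 3384 fits of named genes under the alternatives 2 came past the threshold, Atp5a1 and Uqcrfs1 with DESeq2 in P195A/- against wt. The other 3382 did not pass. They include genes to which DESeq2 gave no adjusted p in that comparison, among them Ndufb8, Uqcr11 and Cox6a1. The sign of mt-Atp6, mt-Co2, mt-Nd2 and mt-Nd5 in that comparison turned without P195A/- replicate 3. Genes called among all genes went from 2 to 7 without a filter on low counts, 0 in females, 11 with only the 2 genotypes fitted and 19 with DESeq2 in P195A/+; from 10 to 5, 5 and 19 with only the 2 genotypes, 1 age only and DESeq2 in P195A/P195A; from 7 to 16, 16 and 200 with no filter, only the 2 genotypes and DESeq2 in P195A/-; and from 8 to 29, 5, 5 and 52 with no filter, only the 2 genotypes, 1 age only and DESeq2 in P195A/- against P195A/P195A. Nuclear members called went from 0 to 2 with DESeq2 in P195A/- against wt. In females only, the mitochondrial median was 0.024 in P195A/- against wt and -0.004 against P195A/P195A, and the nuclear median of the latter -0.097; with 1 age only it was 0.195. The alternatives of 1 age and of added copies were chosen after seeing the data; the cause of each shift was not tested.

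Leaving out each library in turn gave 1 to 2, 5 to 13, 2 to 6 and 5 to 15 called genes in the 4 comparisons and 0 members. Mitochondrial medians ran from -0.402 to -0.193 (P195A/+), -0.189 to 0.07 (P195A/P195A), 0.105 to 0.816 (P195A/-) and 0.138 to 0.947 (P195A/- against P195A/P195A), lowest in the last 2 without P195A/- replicate 3. Nuclear medians ran from 0.04 to 0.096, -0.098 to 0.042 (without P195A/P195A replicates 3 and 2), -0.049 to 0.083 and -0.021 to 0.136. The main fit did not pair animals by replicate number. Correlations of same-numbered libraries ran from -0.074 to 0.227, and those of the others from -0.259 to 0.156. The highest, 0.227 and 0.211, were between P195A/+ and P195A/P195A in replicates 2 and 3. With a replicate block the mitochondrial median in P195A/- against wt was 0.548, the nuclear one 0.051, and no member was called. No editing site in a member was called under any alternative. Group size limits the precision, and for small subunits low counts do as well.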
